A study of Mus musculus with 69 samples.

Results

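The mouse zinc finger genes named Zfp900 to Zfp999 were followed in RNA from the ventral striatum of 69 mice. The gene table held 32 names in this number range among 42279 genes, and the 29 with a mean count of 5 or more over all mice were taken as members. The mice were 35 of the HDID1 line (17 females and 18 males) and 34 of the HSNpt stock (17 females and 17 males), with 1 library per mouse. HDID1 is a single line selectively bred for high blood ethanol after limited-access drinking in the dark, and HSNpt is the genetically mixed stock that serves as its control. Both groups had drunk 20% ethanol from 1 bottle on 4 days and were killed 3 weeks later, so no ethanol-naive mouse was among them, and the labels give no ages. With 1 line set against 1 stock, an effect of the selection and an effect of chance inbreeding cannot be told apart. The comparison asks which members differ in level, in spread between mice, in classes of mice or in exon use by line.

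Most genes of this name carry arrays of C2H2 zinc fingers, short loops held by a zinc ion that each read a few bases of DNA. In many of them a KRAB domain lies ahead of the fingers and recruits the corepressor TRIM28 and, through it, enzymes that lay down heterochromatin on transposable elements and nearby genes. The genes multiply by tandem duplication and stand in clusters of close relatives that differ between mouse strains.

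In GENCODE M21 (genome build GRCm38, the same assembly as mm10) 28 of the 29 had a coding sequence, while Zfp939 was annotated as a transcribed pseudogene. A script counted between 0 and 18 C2H2 fingers per protein with a median of 11. Zfp945 had 18 fingers, and Zfp935, whose annotated protein has 150 residues, had 0. A KRAB A box pattern was found in 16 members, in each case encoded by a GENCODE exon of 127 bases. The search used 1 fixed pattern, so a member without a match may still encode a KRAB domain. The members with the pattern and those with an exon of 127 bases in the exon table are not the same set. Zfp949 has the pattern, but its exon in that table has 128 bases, while Zfp930 has an exon of 127 bases and no match. An exon of exactly that length occurred in 20 of 29 members in the exon table, or 68.97%, against 38.4% of the 289 other Zfp-numbered genes and 6.31% of 16843 tested genes.

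The KRAB exons are shown for the chromosome 17 cluster, which holds the closest copies among the members with the pattern, and for Zfp949, since it was called by line in level, in spread and in exon use. Each is given on the gene's own strand, 5′ to 3′, from GENCODE M21 transcripts, and the capitals mark the 48 bases that encode the KRAB A box pattern. In chromosome order the cluster runs Zfp948, Zfp942, Zfp943, Zfp947, Zfp944, Zfp946 and Zfp945, and Zfp945 is not shown, since the pattern was not found in its annotated protein although the exon table lists an exon of 127 bases for it.
Zfp948: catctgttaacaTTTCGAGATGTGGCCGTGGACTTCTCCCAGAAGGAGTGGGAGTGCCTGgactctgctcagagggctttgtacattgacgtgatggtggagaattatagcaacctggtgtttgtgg
Zfp942: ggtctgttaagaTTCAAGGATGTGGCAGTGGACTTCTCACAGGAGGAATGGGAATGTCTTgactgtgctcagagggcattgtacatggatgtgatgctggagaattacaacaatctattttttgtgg
Zfp943: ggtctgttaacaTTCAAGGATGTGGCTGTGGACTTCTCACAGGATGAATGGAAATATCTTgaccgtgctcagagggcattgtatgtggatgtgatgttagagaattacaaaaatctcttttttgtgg
Zfp947: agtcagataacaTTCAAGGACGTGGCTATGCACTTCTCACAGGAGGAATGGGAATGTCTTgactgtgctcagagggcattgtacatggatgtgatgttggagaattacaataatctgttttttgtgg
Zfp944: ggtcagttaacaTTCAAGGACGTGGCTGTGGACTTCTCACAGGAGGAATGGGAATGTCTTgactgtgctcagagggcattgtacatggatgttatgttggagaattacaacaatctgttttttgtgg
Zfp946: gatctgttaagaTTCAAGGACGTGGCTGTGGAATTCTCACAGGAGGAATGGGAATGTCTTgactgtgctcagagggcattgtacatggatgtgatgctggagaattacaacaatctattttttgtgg
Zfp949: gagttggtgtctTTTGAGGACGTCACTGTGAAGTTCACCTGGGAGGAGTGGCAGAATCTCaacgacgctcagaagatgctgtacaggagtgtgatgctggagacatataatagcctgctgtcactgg

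Within the cluster the 15 pairs of these exons were 74.8% to 96.9% identical, with a median of 90.6%. The closest pair was Zfp942 and Zfp946, with 123 of 127 bases identical. Zfp948 stood off from the other 5 shown, at 74.8% to 80.3%, while the 10 pairs without it were 88.2% to 96.9% identical. Outside the cluster the closest pair was Zfp938 and Zfp958, at 87.4%. The exon of Zfp945 was not compared. The exon of Zfp949 was 57.5% to 65.4% identical to the other 15 KRAB exons. The labels do not say how reads that map to several places were counted, so values of the close copies on chromosome 17 are uncertain to that extent.

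The members lay on 10 chromosomes, with 10 of the 29 on chromosome 17. There were 3 groups of neighbours with starts within 2 Mb of each other. The largest is the cluster of 7 shown above, at chr17:21567046-22867134. Zfp930 and Zfp964 formed a pair at chr8:69226343-69664170, and Zfp935 and Zfp934 a pair at chr13:62454323-62520544. Coordinates are those of the deposited exon table on mm10. Exons of 1 member, Zfp961, overlapped an exon of a gene on the other strand, Cyp4f18, over 114 bases, and 99.9% of its counts lay in exons free of that overlap.

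Zfp942 and Zfp943 stand head to head, with 87 bases between their first exons. The promoter window of Zfp943 is shown because it takes in the starts of both genes, whose levels moved together across mice as described below. It covers chr17:21962309-21962608 on the plus strand (RefSeq, GRCm38.p6), and the capitals mark GGGCGG, which occurs here on the opposite strand as CCGCCC.
Zfp943 promoter: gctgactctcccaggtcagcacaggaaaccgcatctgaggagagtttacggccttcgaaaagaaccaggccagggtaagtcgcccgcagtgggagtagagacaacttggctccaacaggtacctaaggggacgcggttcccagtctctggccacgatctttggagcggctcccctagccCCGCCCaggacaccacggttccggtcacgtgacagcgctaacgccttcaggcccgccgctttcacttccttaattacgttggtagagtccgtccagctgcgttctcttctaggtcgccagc

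The window held 21 CpG dinucleotides, against a median of 9 over 32 promoter windows of 26 members and a median of 7 over all 32851 promoters in the RefSeq table. Searched on both strands, CCAAT occurred in 71.9% of the members' windows and 37.4% of all windows, TATAAA in 0% and 13.6%, and GGGCGG in 31.3% and 35.7%. Zfp932, Zfp938, Zfp939, Zfp951 and Zfp958 each gave more than 1 window, overlapping and all with CCAAT. The members' shares thus count these genes more than 1 time. Windows of neighbouring copies can share sequence, as those of Zfp942 and Zfp944 do over a run of 207 identical bases. These are matches of letters and say nothing of binding.

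Levels were compared between members as CPM (counts scaled to TMM library sizes) per kilobase of exon, averaged over all 69 mice. The median member had 3.04 CPM per kilobase. The highest were Zfp938 with 7.58, Zfp956 with 6.99 and Zfp954 with 5.70 CPM per kilobase. The lowest were Zfp953 with 0.173, Zfp951 with 0.284 and Zfp947 with 0.298 CPM per kilobase. At the edge of the choice, Zfp953 and Zfp947 were just inside with mean counts of 13.8 and 15.5, and Zfp957 and Zfp963 were just outside with 1.94 and 1.15. Zfp936, the third name left out, averaged 0.043 counts and was at 0 in 66 libraries.

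**Figure D1:**
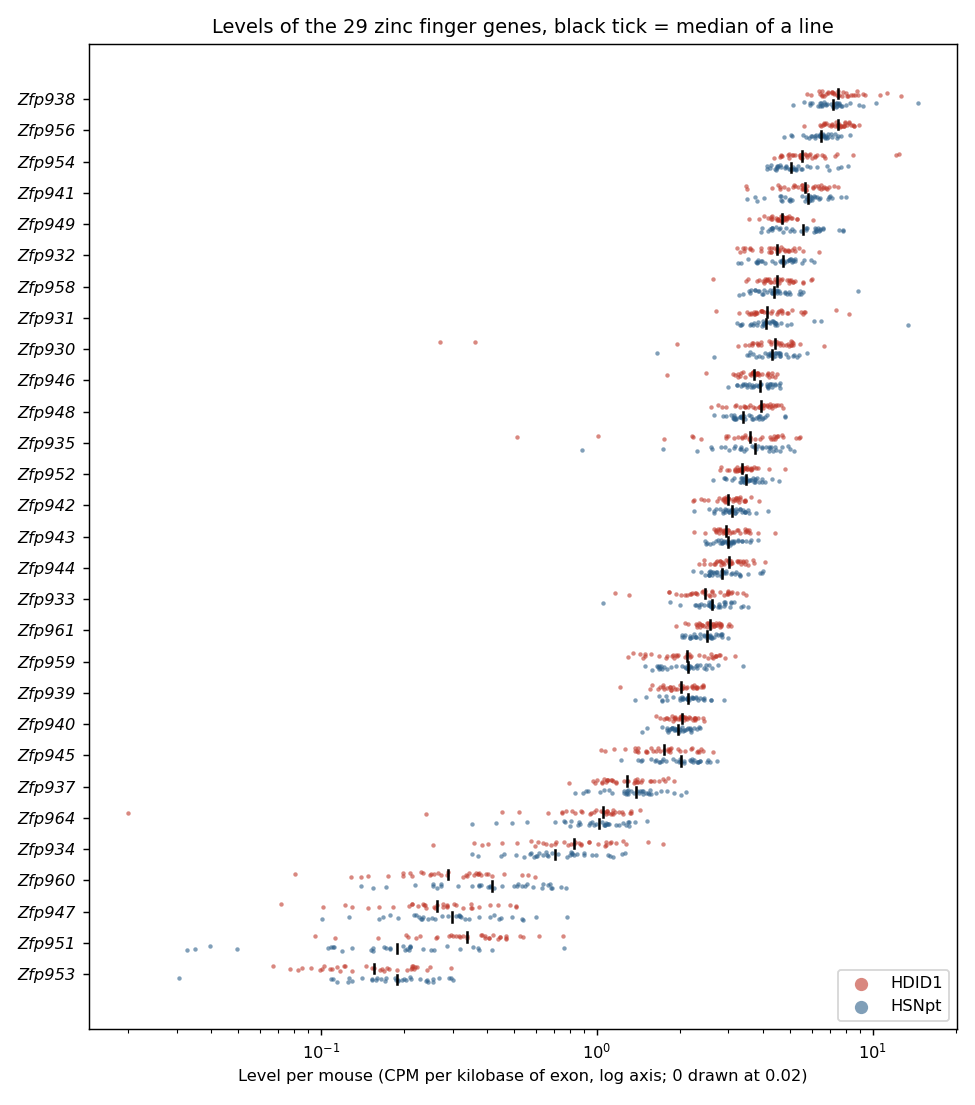
Level of each of the 29 members in each mouse, as CPM per kilobase of exon on a log axis, with HDID1 mice (red) drawn above HSNpt mice (blue) and a black tick at the median of each line. The ranges of the lines overlap in every member, and the levels run from 0.173 for Zfp953 to 7.58 for Zfp938.

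There were 12 libraries that stand apart, 10 of HDID1 and 2 of HSNpt. They lay over 3 scaled median absolute deviations from the median in the score of spiny projection neuron markers or in 5′ balance, the log2 ratio of counts in the 5′ and the 3′ exons of 8564 genes. Summed spiny neuron markers lay between 835 and 11070 CPM in HDID1 and between 2463 and 14140 CPM in HSNpt, with 0 of the markers at 0 in all mice, and 6 of 13 were lower in HDID1. Hypothalamus markers, summed between 6.32 and 1705 CPM in HDID1 and between 4.20 and 468 CPM in HSNpt, were higher in HDID1 in 4 of 8. Astrocyte markers were higher in 3 and lower in 1 of 10, microglia markers lower in 2 of 12, and interneuron markers higher in 1 of 9. Choroid plexus, oligodendrocyte and cortex markers had 0 called. Of all tested genes 5.98% were called higher and 5.73% lower in HDID1. In bulk tissue, fewer cells of a type and less RNA per cell cannot be told apart. Whether the samples differed in how much neighbouring tissue they held was not tested.

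The line test found 4 of 29 members changed. Zfp951 and Zfp956 were higher in HDID1, and Zfp949 and Zfp960 were lower. Quasi-likelihood F tests in edgeR were run across all 16867 genes that passed the filter on low counts, and a Benjamini-Hochberg adjusted p under 0.05 was called. It called 11.7% of all tested genes, 5.98% as higher and 5.73% as lower in HDID1, so the members' 13.8% was close to the background. All 29 members passed the filter. Over them, 14 log2 fold changes were positive and 15 negative with a median of -0.02, against a median of 0.01 over all tested genes. Among 286 other Zfp-numbered genes tested, 22 were higher and 7 lower in HDID1, with a median of 0.01.

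Zfp951, a gene on chromosome 5 with 10 fingers, differed most. In HDID1 mice its lowest, median and highest values were 0.451, 1.597 and 3.58 CPM, against 0.154, 0.892 and 3.59 CPM in HSNpt mice. The median of HSNpt was exceeded by 32 of 35 HDID1 mice, and 4 HSNpt mice lay below every HDID1 mouse. These 4 were HSNpt males 6 to 9, which follow each other in sample order. No fit over both sexes left all 4 of them out. The log2 fold change was 0.80 (SE 0.18, adjusted p = 0.0012, edgeR). Over all mice 76.9% of its counts came from the last of its 7 exons, and its mean count was only 24.2 per mouse.

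Zfp956, a gene on chromosome 6 with 6 fingers, was among the highest members per kilobase and its difference was small. HDID1 mice had 13.2, 17.6 and 20.9 CPM at the lowest, median and highest, against 11.1, 15.2 and 19.3 CPM in HSNpt mice. In 32 of 35 HDID1 mice the level exceeded the HSNpt median, and the ranges overlapped apart from 5 HDID1 mice above and 4 HSNpt mice below. The log2 fold change was 0.20 (SE 0.04, adjusted p = 0.00023, edgeR). With scores of 6 cell type marker lists as covariates it was 0.10 with an adjusted p of 0.17, so the call was lost in that fit. Without the 12 libraries that stand apart it was 0.21 with an adjusted p of 0.00037.

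Zfp949, a KRAB gene with 11 fingers on chromosome 9, was lower in HDID1. Over all mice it was also called as more even in HDID1, a call at the threshold that was lost without the libraries that stand apart. HDID1 mice had 14.6, 19.3 and 24.9 CPM at the lowest, median and highest, and HSNpt mice 16.2, 23.04 and 32.2 CPM. The HSNpt median was exceeded by 1 of 35 HDID1 mice, and 14 of 34 HSNpt mice lay above every HDID1 mouse. It fell by 0.24 on the log2 scale (SE 0.05, adjusted p = 0.0019, edgeR). With the 6 marker scores as covariates the log2 fold change was -0.22 with an adjusted p of 0.044 (edgeR), close to the threshold.

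Zfp960, with 13 fingers, lies on chromosome 17 outside the cluster of 7. HDID1 mice had 0.214, 0.773 and 1.597 CPM at the lowest, median and highest, and HSNpt mice 0.374, 1.11 and 2.07 CPM. In 4 of 35 HDID1 mice the level exceeded the HSNpt median. It fell by 0.52 on the log2 scale (SE 0.14, adjusted p = 0.011, edgeR), at a mean count of 18.4. With the marker scores as covariates the log2 fold change was -0.42 with an adjusted p of 0.11, so this call too was lost in that fit.

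**Figure D2:**
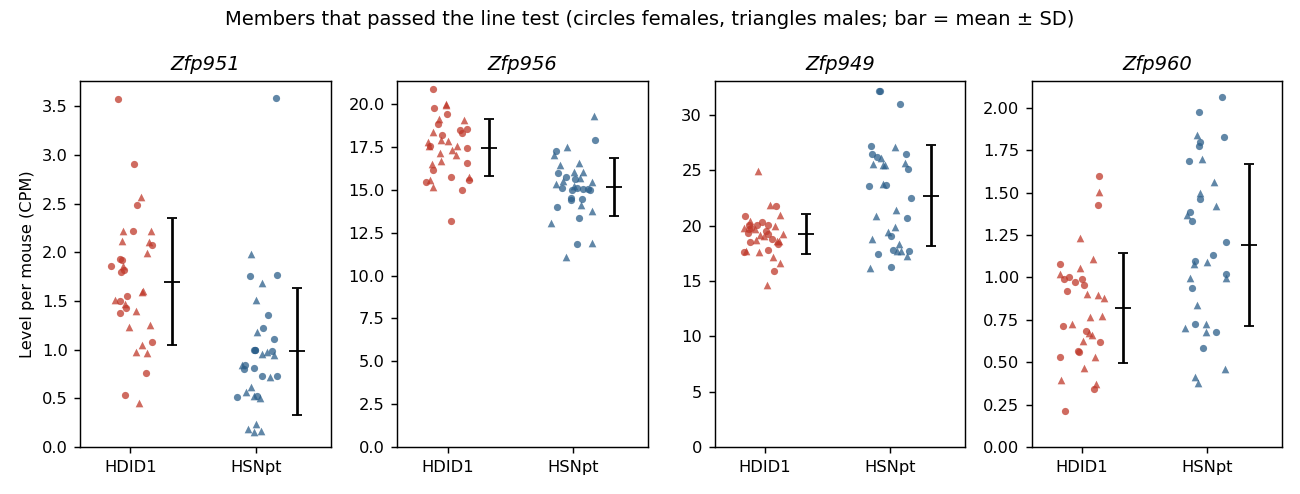
CPM of the 4 members that passed the line test, 1 point per mouse, HDID1 left of HSNpt, with circles for females, triangles for males and a bar for mean ± SD. In Zfp949 the HDID1 mice sit close together between 14.6 and 24.9 CPM while HSNpt mice reach 32.2 CPM.

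The 4 calls were made over both sexes. In females alone 0 of 29 members passed, where edgeR called 82 of 16154 genes, and in males alone Zfp951 and Zfp956 passed, where it called 1079 of 16357. In each sex the 4 members kept their direction. Zfp951 had 1.81 ± 0.742 CPM in HDID1 females and 1.59 ± 0.552 CPM in HDID1 males, against 1.16 ± 0.721 CPM in HSNpt females and 0.808 ± 0.541 CPM in HSNpt males (SD, n = 17, 18, 17 and 17). Zfp949 had 19.3 ± 1.37 CPM in HDID1 females and 19.2 ± 2.20 CPM in HDID1 males, against 23.8 ± 5.18 CPM in HSNpt females and 21.6 ± 3.74 CPM in HSNpt males. The line by sex interaction itself was called in 0 of 16867 genes (0% of all tested genes, edgeR), and 1 member had an unadjusted p under 0.05 (3.45%, against 5.03% of all tested genes), with a lowest adjusted p of 0.98. The 4 line calls were each made again without the 12 libraries that stand apart, with adjusted p from 0.00037 to 0.039 (edgeR).

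The other 25 members had log2 fold changes from -0.25 to 0.20. In 19 of them the size was under 0.1, and in 23 the 95% interval lay within 0.5 of 0 on either side. Of the named members, Zfp938 had a log2 fold change of 0.09, with 16.6 ± 3.14 CPM in HDID1 and 15.6 ± 3.48 CPM in HSNpt (SD, n = 35 and 34). Zfp954 had 12.2 ± 3.55 CPM in HDID1 and 10.6 ± 2.09 CPM in HSNpt (SD, n = 35 and 34), a log2 fold change of 0.20 with an adjusted p of 0.065 (edgeR). Zfp953 had a log2 fold change of -0.25, with an interval from -0.50 to -0.01 and an adjusted p of 0.17 (edgeR).

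In the chromosome 17 cluster 0 of 7 members passed the line test, and 2, Zfp948 and Zfp945, had an unadjusted p under 0.05, as did 27.9% of all tested genes. Their log2 fold changes in chromosome order were 0.12 for Zfp948, -0.04 for Zfp942, 0.03 for Zfp943, -0.22 for Zfp947, 0.06 for Zfp944, -0.08 for Zfp946 and -0.18 for Zfp945. Zfp945, the member with the most fingers, had 18.0 ± 4.18 CPM in HDID1 and 20.4 ± 3.82 CPM in HSNpt (SD, n = 35 and 34), a log2 fold change of -0.18 with an adjusted p of 0.10 (edgeR), which was -0.09 with an adjusted p of 0.56 without the libraries that stand apart. Zfp947, the lowest of the cluster, had 0.792 ± 0.313 CPM in HDID1 and 0.922 ± 0.421 CPM in HSNpt. In the cluster 3 differences were positive and 4 negative, and that of Zfp942 turned to 0.0065 without the libraries that stand apart.

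**Figure D3:**
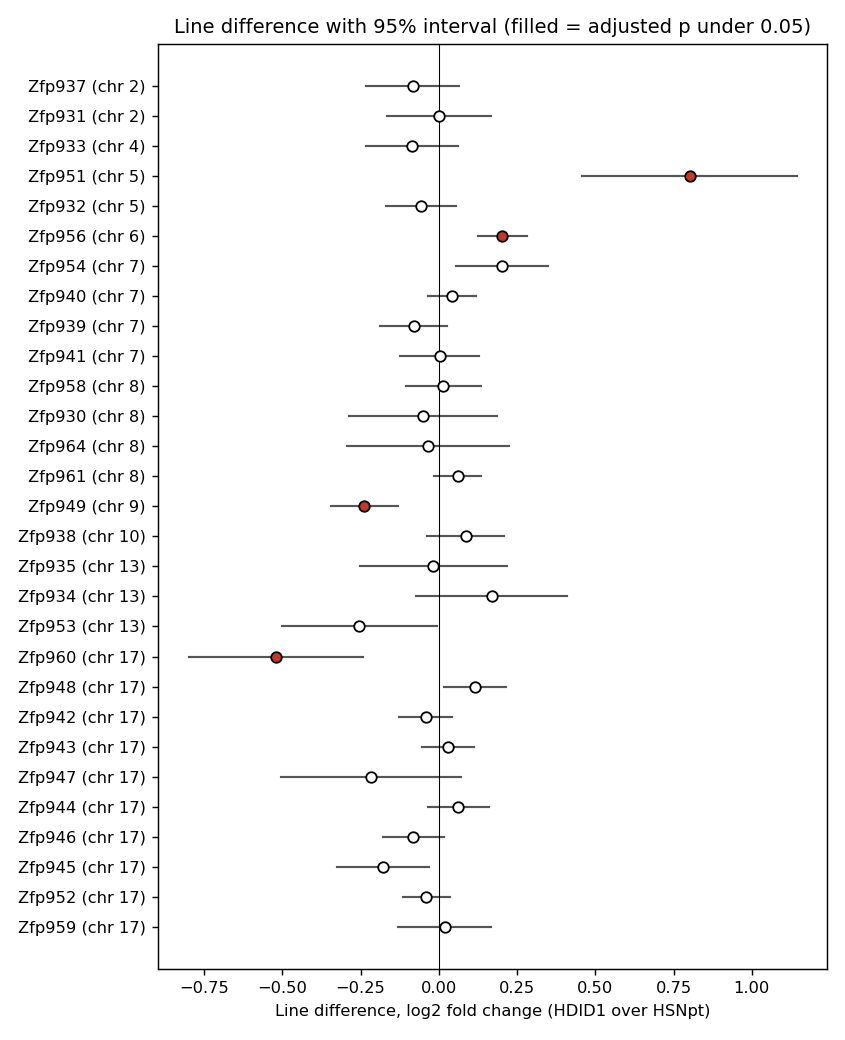
Log2 fold change of HDID1 over HSNpt with its 95% interval for each member in chromosome order, filled where the adjusted p was under 0.05. The 4 filled points lie on chromosomes 5, 6, 9 and 17, and the 7 cluster members on chromosome 17 scatter around 0.

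Genes that work with KRAB zinc finger proteins were read from a list of 28 corepressor and heterochromatin genes. All 28 were tested, of which 2 were higher in HDID1 and 0 lower, with a median log2 fold change of -0.01. Beside the 5.98% and 5.73% of all tested genes called in each direction, the count of higher genes is near the background. Suv39h1, a methyltransferase of histone H3 lysine 9, had 25.5 ± 2.50 CPM in HDID1 and 23.1 ± 2.67 CPM in HSNpt (SD, n = 35 and 34), a log2 fold change of 0.14 (adjusted p = 0.0090, edgeR). Hdac1, a histone deacetylase, had 18.2 ± 2.37 CPM in HDID1 and 16.6 ± 2.14 CPM in HSNpt, also 0.14 (adjusted p = 0.041, edgeR). Trim28, the scaffold that KRAB domains bind, had 145 ± 18.8 CPM in HDID1 and 139 ± 13.7 CPM in HSNpt and did not pass (adjusted p = 0.35, edgeR).

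Spread between mice was tested with limma on absolute deviations of log2 CPM from the group median. It called 7 of 16867 genes, or 0.0415%, each with less spread in HDID1, and 1 of 29 members was among them. Zfp949 deviated on average by 0.10 in HDID1 mice and 0.24 in HSNpt mice on the log2 scale, a difference of -0.14 (SE 0.03, adjusted p = 0.0497, limma). The value sits at the threshold. Without the 12 libraries that stand apart the difference was -0.15 with an adjusted p of 0.082 (limma), so the call was lost in that set. There the test called 11 genes, and why Zfp949 was not among them was not tested. Zfp951 spread most of all members over both lines, with a biological coefficient of variation (the spread beyond counting error, from edgeR) of 0.45, above 88.4% of tested genes. The median member had 0.171, against 0.227 over all tested genes.

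No member split the mice into classes. A gene was taken to have classes where its sorted log2 CPM over all 69 mice held a gap of 1 or more with at least 3 mice on each side, and 339 of 16867 genes (2.01%) did, against 0 of 29 members and 6 of 286 other Zfp-numbered genes. The largest member gaps were 0.72 in Zfp935 and 0.70 in Zfp951. In Zfp951 the gap set 4 mice apart on the low side, 0 of 35 HDID1 mice and 4 of 34 HSNpt mice. They were HSNpt males 6, 7, 8 and 9, which follow each other in sample order. In Zfp935 the gap set apart 2 HDID1 mice and 1 HSNpt mouse, the libraries with the lowest 5′ balance described below.

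Exon use differed by line in 1 of 20 members tested, again Zfp949, where edgeR's exon usage test (Simes p per gene) called 505 of 12320 genes, or 4.1%. Its adjusted p was 0.0018, and 3.28e-05 without the 12 libraries that stand apart. The exon that departed was the second of 6, at chr9:88552662-88552861 on the plus strand. This exon of 200 bases lies in the 5′ untranslated region, and at least 1 annotated GENCODE M21 transcript skips it. Relative to the rest of the gene its log2 fold change was 0.42 (adjusted p = 0.0025 over exons, edgeR). The first exon had -0.25 and the 4 others lay between -0.08 and 0.02.

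Counted directly, the second exon held 7.83 ± 1.83% of Zfp949 counts in HDID1 and 5.34 ± 2.50% in HSNpt (SD, n = 35 and 34). The lowest, median and highest were 2.56%, 8.0% and 10.8% in HDID1 mice, against 0.216%, 5.44% and 10.7% in HSNpt mice. The difference of 2.49 percentage points had a permutation p of 2e-05 (two-sided, 100000 resamples within sex). This share was singled out after the exon usage result and is the same data, so its p is not separate support. The first exon held 10.6 ± 2.05% in HDID1 and 13.3 ± 2.84% in HSNpt.

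Taken as a share of first and second exon counts alone, the second exon made up 27.8%, 42.4% and 59.7% at the lowest, median and highest in HDID1 mice, against 1.15%, 29.3% and 53.8% in HSNpt mice. The HDID1 low end was HDID1 female 6 at 27.8%, followed by HDID1 female 10, the libraries with the lowest 5′ balance of all (-2.08 and -2.50), and the part of 5′ balance in their shares was not tested. The next HDID1 mouse, with a balance of 0.03, had 28.8%. The HSNpt low end was HSNpt male 11 with 1 second exon count, and the next HSNpt mouse had 7.04%. There were 16 HSNpt mice below every HDID1 mouse, and also 16 without the 12 libraries that stand apart. Among the 14 HSNpt mice whose gene level lay above every HDID1 mouse, 12 were also below every HDID1 mouse in this share. Without the libraries that stand apart these counts were 18 and 15. The share rests on few reads, with between 7 and 47 second exon counts in HDID1 mice and between 1 and 46 in HSNpt mice.

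Within HSNpt this share ran against the level of the last exon, which held 58.5 ± 3.65% of the gene's counts in HDID1 and 57.7 ± 3.52% in HSNpt. In HDID1 Pearson's r was 0.07 and Spearman's rho -0.03 over 35 mice (permutation p = 0.65 and 0.87, adjusted over both lines 0.65 and 0.87). In HSNpt r was -0.70 and rho -0.68 over 34 mice (permutation p = 1e-05, the smallest that 100000 resamples can give, and 3e-05, adjusted 2e-05 and 6e-05). Leaving out the 2 mice farthest from the median share gave r = -0.15 in HDID1 and r = -0.72 in HSNpt. The difference between the lines in r was not tested, and the relation was chosen after seeing the values. Without the libraries that stand apart r was 0.09 in 25 HDID1 mice and -0.75 in 32 HSNpt mice.

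**Figure D4:**
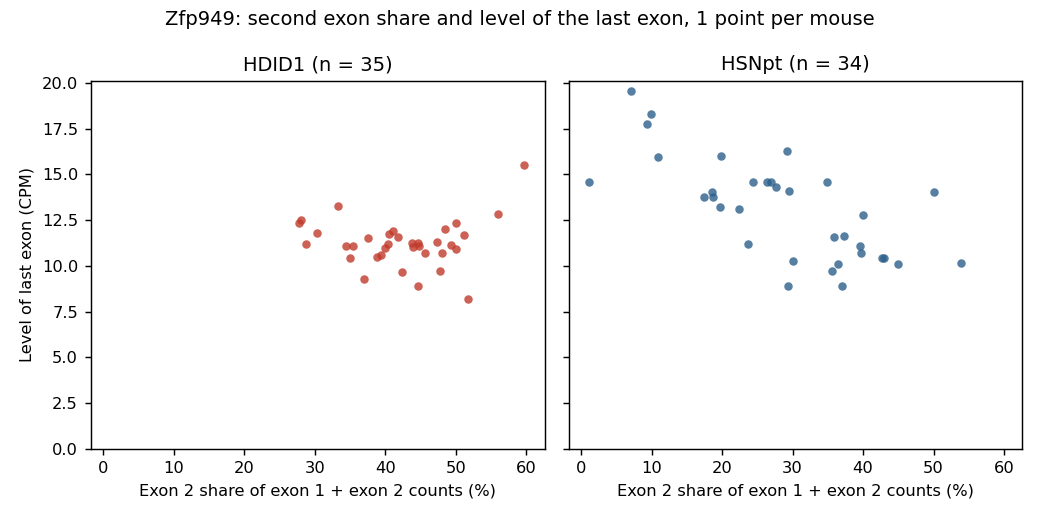
Level of the last Zfp949 exon (CPM) against the second exon's share of first plus second exon counts (percent), 1 point per mouse, HDID1 left and HSNpt right. HSNpt mice run from low share and high level to high share and low level (r = -0.70), while no HDID1 mouse has a share under 27.8%.

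Sex and blood ethanol gave no member calls. Between males and females 16 of 16867 genes passed (0.0949%, edgeR) and 0 members did. There were 6 members with an unadjusted p under 0.05 (20.7%, against 8.39% of other Zfp-numbered genes and 9.07% of all tested genes), and the lowest adjusted p was 0.55. The file headers give a blood ethanol reading per mouse with no unit stated, with a median of 1.498 in HDID1 and 0.256 in HSNpt, where 16 mice read 0. The slope on this reading within a line passed in 0 of 16867 genes in HDID1 (0%) and 0 in HSNpt (0%, edgeR). Of the 29 members 2 had an unadjusted p under 0.05 in HDID1 and 0 in HSNpt, against 1850 of all 16867 tested genes in HDID1 and 382 in HSNpt.

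Neighbouring members were correlated across mice in 7 of 8 pairs, and in 6 of 8 without the libraries that stand apart (adjusted p under 0.05, permutation test). Over 69 mice, on log2 CPM with group means removed, Zfp942 and Zfp943, the head-to-head pair, had r = 0.65 and rho = 0.60 (permutation p = 1e-05 each, adjusted over 8 pairs 2.67e-05 and 8e-05), with r = 0.60 without the 2 mice farthest from the median of Zfp942 and r = 0.66 without the libraries that stand apart. Zfp944 and Zfp946, only 86233 bases apart from start to start, had r = 0.02 and rho = 0.06 (permutation p = 0.87 and 0.64, adjusted 0.87 and 0.64), and r = -0.01 without the 2 farthest mice. Without the libraries that stand apart this pair had r = 0.14 and rho = 0.14 (permutation p = 0.30 each, adjusted 0.30 each). The other 5 pairs on chromosomes 13 and 17 had r from 0.42 to 0.56. For comparison, 344 pairs of members on different chromosomes had a median r of 0.12, and 0.18 without the libraries that stand apart. This is a description that shares libraries and scaling. These pairs were not put through the permutation test, so the share of them that would pass is not known. Zfp930 and Zfp964 had the highest r, 0.78 with rho = 0.48 (permutation p = 2e-05 and 0.00027, adjusted 4e-05 and 0.00043), and r was 0.24 with rho = 0.22 (permutation p = 0.066 and 0.10, adjusted 0.076 and 0.11) without the libraries that stand apart.

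In the 3 libraries of lowest 5′ balance several members were at the edge of their range. The lowest balances were -2.50 and -2.08 in HDID1 females 10 and 6, and -1.89 in HSNpt male 8, while the other 66 libraries lay at -0.98 or above. In these 3 libraries Zfp930, Zfp933, Zfp935, Zfp946 and Zfp964 were below every other library. That is 5 of 29 members (17.2%), against 43 of 286 other Zfp-numbered genes and 12.3% of all tested genes, so the pattern is not particular to the members. In all 3 libraries 0 members were above every other library, against 16 of 286 other Zfp-numbered genes (5.59%) and 10.7% of all tested genes. Zfp960, called for line, had 0.214 and 0.342 CPM in the 2 HDID1 females, below the lowest of the other 66 libraries at 0.372 CPM. Among the other 66 libraries the lowest Zfp930 value, 2.58 CPM, was in HDID1 male 1, whose balance of 0.18 was the highest of all. Zfp930 had 0.357, 0.478 and 2.18 CPM in the 3 libraries, against 2.58 to 8.80 CPM in the rest. Zfp935 had 1.07, 0.546 and 0.935 CPM, against 1.84 to 5.77 CPM in the rest. Zfp954 went the other way, with 24.9 and 24.2 CPM in the 2 HDID1 females, above every other library, and 13.7 CPM in HSNpt male 8. Without the 12 libraries its line difference was 0.08 with an adjusted p of 0.50 (edgeR). Whether RNA quality has a part in these values was not tested.

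**Figure D5:**
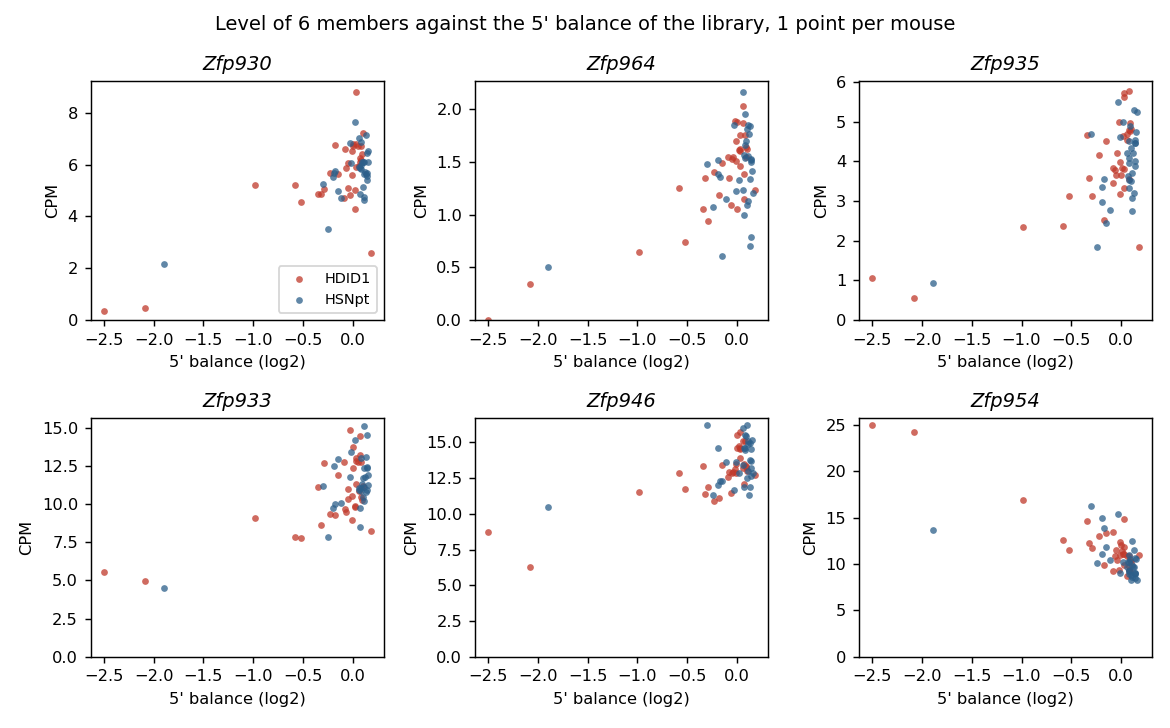
CPM of 6 members against the 5′ balance of the library (log2), 1 point per mouse, HDID1 red and HSNpt blue. The 3 libraries of lowest balance, from -2.50 to -1.89, are the lowest in the panels of Zfp930, Zfp964, Zfp935, Zfp933 and Zfp946, and 2 of them are the highest for Zfp954.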

How the data were processed

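The authors deposited whole-number counts of reads per gene and per exon, not normalized, 1 column per mouse. Libraries were poly-A selected and stranded, multiplexed 6 per lane, per the labels' protocols, and the submitters' processing notes name STAR, bedtools, edgeR and mm10. The sources used here do not say whether counting used strand or how multi-mapping reads were treated. Library totals ran from 14077983 to 35257422 counts (median 17646316). No library was found to be deposited more than 1 time.

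Members were rows named Zfp900 to Zfp999 with a mean count of at least 5. The members and gene lists were chosen with earlier results of these data known. Low genes were removed by filterByExpr, given the 4 groups of line and sex. Counts were scaled by TMM and tested with edgeR 4.0.16 (R 4.3.3) on group means over 69 libraries, with Benjamini-Hochberg adjustment over 16867 genes. The line contrast weighted females and males equally, HDID1 over HSNpt. Spread was tested with limma 3.58.1 on log2 CPM with a prior count of 2, and exon usage with diffSpliceDGE. Alternatives included DESeq2 1.42.0. The fits were also run on simulated counts, drawn independently for each library and with no libraries that stand apart. Those runs therefore do not cover such libraries, and their outcome is not given here. Named are members that passed a test, the 3 highest and 3 lowest per kilobase, the cluster of 7, and genes next to the count limit. Zfp954 and genes in the 5′ balance paragraph were named after their values were seen. Replicate numbers are names only and pair nothing.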

Additional observations from a re-analysis of the deposited data

How the results depend on the processing

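The number of members called for line was 4 with DESeq2, RLE size factors, no filter on low counts, limma with voom weights, exons free of overlap, and without the libraries that stand apart, and in each of these Zfp949, Zfp951, Zfp956 and Zfp960 were the 4. With 6 marker scores as covariates it was also 4, but Zfp941 (log2 fold change -0.20, adjusted p = 0.040, edgeR) and Zfp954 (0.20, adjusted p = 0.021) took the place of Zfp956 and Zfp960. It was 0 in females alone and 2 in males alone. Leaving out 1 library at a time gave 4 to 5, the fifth being Zfp954 in 10 of 69 fits. Over all tested genes, 1975 were called for line, against 912 without the libraries that stand apart, 1034 with marker covariates, 82 in females alone and 1079 in males alone. The line difference of Zfp942 was -0.04 and turned to 0.0065 without the libraries that stand apart (adjusted p = 0.96). Members called for spread came to 0 without those libraries, and Zfp949 remained with a prior count of 0.5 and with deviations from the group mean. Classes of mice were found in 0 members at gaps of 0.75 and 1.5, in 1 (Zfp930) with at least 2 mice a class, and in 2 (Zfp935 and Zfp951) at a gap of 0.5, a setting added after seeing the data. Exon usage was called in 2 members (Zfp940 and Zfp949) with exons of at least 50 counts. For Zfp930 and Zfp964 r was 0.24 without the libraries that stand apart, also added later. The cause of these changes was not tested. No paired analysis was run, since replicate numbers only follow sample order. The 69 laboratory identifiers of the mice had 42 different first parts, and this grouping was not used. Every test took the mice as independent, and whether mice with a shared first part are related was not tested. Low counts limit Zfp951, Zfp960, Zfp947 and Zfp953, with mean counts of 24.2, 18.4, 15.5 and 13.8.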

Other observations

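Single mice stood at the edge of many members at once, a pattern picked out after the values were seen and given without a test. Some members are correlated across mice, so these counts are not of separate events. The mice with the most members at either edge are described. Others had fewer, such as HDID1 female 4, lowest in 3 members (10.3%, against 1.01% of all tested genes). HDID1 female 14 was highest in 3 (10.3%, against 1.42%). HDID1 male 1 was the lowest of all 69 mice in 7 of 29 members (24.1%), against 14 of 286 other Zfp-numbered genes (4.90%) and 3.56% of all tested genes. These 7 were Zfp931, Zfp934, Zfp942, Zfp943, Zfp947, Zfp948 and Zfp958, of which 4 are neighbours in the chromosome 17 cluster. In Zfp958, for example, this mouse had 3.71 CPM and the next lowest mouse 4.60 CPM. HSNpt female 2 was the highest of all mice in 5 of 29 members (17.2%), against 18 of 286 other Zfp-numbered genes (6.29%) and 5.33% of all tested genes. These 5 were Zfp931, Zfp938, Zfp942, Zfp946 and Zfp958. Its 30.9 CPM in Zfp931 compares with 18.9 CPM in the next highest mouse, HDID1 female 10, and its 12.4 CPM in Zfp958 with 8.47 CPM in HDID1 female 14. Zfp931, Zfp942 and Zfp958 were thus at their lowest in the HDID1 male and at their highest in the HSNpt female. HDID1 male 1 had the most genes with a count of all libraries, 24462 against a median of 21542, while HSNpt female 2 had 21500. In 5′ balance, HDID1 male 1 was the highest of the 69 mice at 0.18, and HSNpt female 2 ranked 61 at -0.30. Both ranked high in the hypothalamus marker score, 8 for HDID1 male 1 and 7 for HSNpt female 2, and in the interneuron score, 9 and 2 in the same order. Both ranked low in the spiny neuron score, at 60 and 50. In the microglia score HDID1 male 1 ranked 52 and HSNpt female 2 ranked 3. Neither passed the limits by which the 12 libraries that stand apart were chosen, and the part of these measures in the pattern was not tested.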
